A study of Mus musculus with 12 samples.

Results

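The comparison described here is the change of the NR4A3 knockout effect between day 1 and day 14 in cultured mouse vascular smooth muscle cells, that is, knockout minus wild type at day 14 less knockout minus wild type at day 1. All 12 of 12 libraries of the study enter it, in 4 groups of 3: wild type (WT) and NR4A3KO (KO) cells at day 1 and at day 14. The cells are labelled as primary cells from the mouse aorta, and the protocols give 1 serum-containing medium with 10 mM beta-glycerophosphate (β-GP), an organic phosphate that is used to bring on mineral deposition in culture. The treatment label reads β-GP for KO and none for WT, so genotype and whatever that label stands for cannot be told apart. The labels do not say which piece of the gene was removed, what drove the deletion, how old the animals were, or whether replicates came from separate animals or cultures; the p-values therefore rest on library-to-library spread that may be technical only. RNA was counted for 26706 gene names found in the tables of both days, and 15956 of them had enough reads to be tested.

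NR4A3 is an orphan nuclear receptor of the same family as NR4A1 and NR4A2. These receptors are encoded by early response genes, bind DNA without a known hormone, and have been studied in vascular smooth muscle for their part in growth and inflammation. Vascular smooth muscle cells in culture lose much of their contractile programme and can take on features of matrix-producing, inflammatory or bone-forming cells. In the account below a gene whose knockout effect had opposite signs at the 2 days is called reversed, a gene with the same sign at both days is called kept, and the others differed at 1 day or at neither.

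Library totals ranged from 13815865 to 30027439 counts, and the mitochondrially named share of counts from 3.26% to 4.81%. The smooth muscle label was met in part: Acta2, smooth muscle actin, was read at 253 CPM or more in every library (CPM are counts relative to the scaled library total), whereas Tagln had 0 to 9 counts per library and Myh11, the smooth muscle myosin heavy chain, stayed at 0.633 CPM or below. Nr4a3 itself was lower in KO at both days. At day 1 it had 110, 121 and 97 counts in WT and 34, 36 and 48 in KO; at day 14 it had 4765, 3669 and 4383 counts in WT and 564, 851 and 1011 in KO. The groups did not overlap at either day, and reads remained in every KO library. The log2 fold change was -1.0 at day 1 and -2.27 at day 14, a change of -1.27 ± 0.29 (SE, adjusted p = 0.0015), so the targeted gene was more strongly reduced at day 14.

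One feature of the libraries stands before all results. KO at day 1 and WT at day 14 resembled each other more than any other pair of groups: the median correlation between their libraries across genes was 0.974 (0.962 to 0.981), against 0.921 to 0.936 between any other 2 groups; inside a group it was 0.975 to 0.994. Principal component 1 held 47.6% of the variance and set these 2 groups against WT at day 1 and KO at day 14. By library, WT replicate 1 of day 14 correlated with the KO libraries of day 1 at 0.978 to 0.981. With the other WT libraries of day 14 it correlated at 0.970 and 0.975, so it stood nearer to KO at day 1 than to its own group. Of all genes tested, 95.3% had mean levels within 2-fold of each other in KO at day 1 and WT at day 14. For a gene at the same level in those 2 groups, a reversed effect means that WT at day 1 and KO at day 14 both lay above, or both below, that level, and a kept effect means that the level climbed or descended from WT at day 1 through the middle groups to KO at day 14. The table of day 1 lists the control columns first and the table of day 14 the KO columns first; reading the genotype names of 1 table the other way round would turn reversed into kept genes and would place Nr4a3 higher in the KO libraries of that day. Whether the names were exchanged was not tested, and every direction below is that of the libraries as labelled.

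The knockout effect changed between the days for 9593 genes, 60.1% of those tested (edgeR quasi-likelihood F test, adjusted p below 0.05, the rule for every call here). The effect was higher at day 14 for 4539 genes (28.4%) and lower for 5054 (31.7%). In the same fit, KO was higher than WT at day 1 for 27.5% of genes and lower for 25.0%, and at day 14 higher for 25.2% and lower for 26.8%. Of 5124 genes called at both days, 82.6% had opposite signs: 1980 genes (12.4% of those tested) went from lower to higher in KO, and 2250 (14.1%) from higher to lower. Only 438 genes (2.75%) were higher in KO at both days and 456 (2.86%) lower at both, together 5.60%. A further 20.4% were called at day 1 alone, 19.9% at day 14 alone and 27.6% at neither. With effects of at least 2-fold at both days, 547 genes (3.43%) went from lower to higher, 971 (6.09%) from higher to lower, 94 (0.589%) stayed higher and 88 (0.552%) stayed lower. Across the 15956 genes the log2 effects of the 2 days correlated with r = -0.50, a description across genes of 2 contrasts with no library in common. The kept counts rest more on 1 library than the others do: without WT replicate 1 of day 14, 905 genes were kept higher and 783 kept lower. That library is the one that correlated more with KO at day 1 than with its own group. With library size alone as the scaling, the median change of all genes moved by -0.18 on the log2 scale, 37.9% of called changes were higher at day 14 in place of 47.3%, and genes going from lower to higher made up 35.5% of the reversed genes in place of 46.8%.

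**Figure D1:**
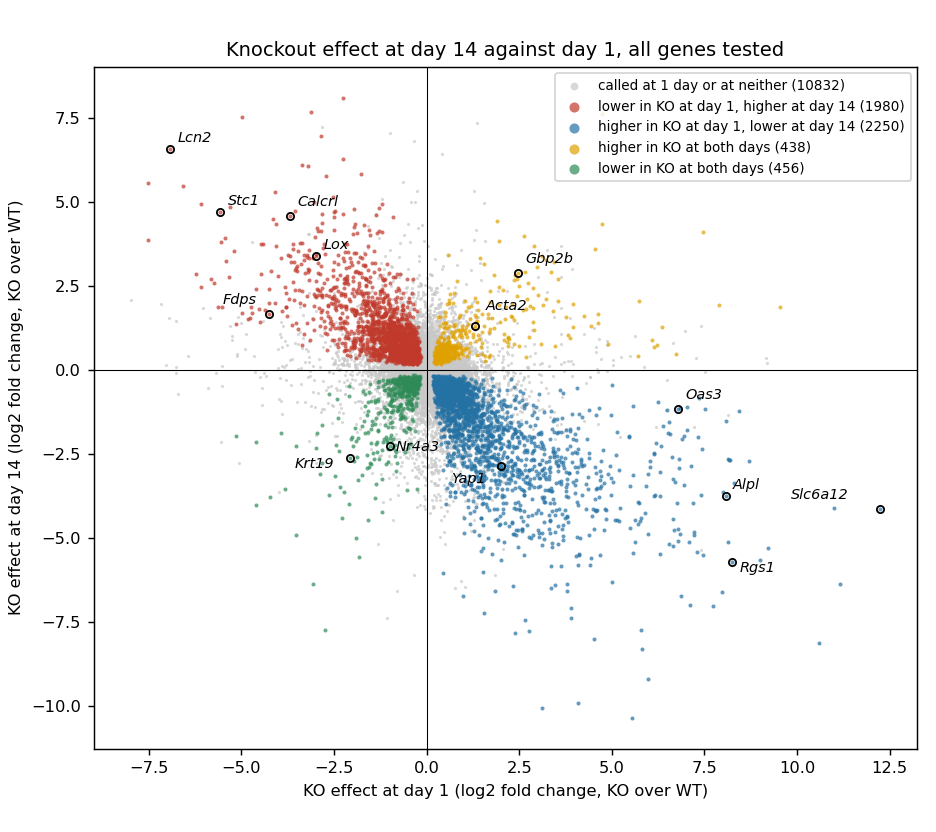
Knockout effect of each tested gene at day 1 (horizontal axis) and day 14 (vertical axis), as log2 fold change of KO over WT; colours give the class and the legend the number of genes. The upper left and lower right regions hold the 1980 and 2250 reversed genes, and the kept genes (438 and 456) lie in the other 2.

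Gene lists were described by their counts: mostly reversed or mostly kept where at least 50% of the tested members were in 1 such class, and mixed otherwise. Of 54 lists with 4 or more tested members, 10 were mostly reversed from lower to higher, 3 mostly reversed from higher to lower, 3 mostly kept and 38 mixed. The lists that went from lower to higher were those for cholesterol synthesis, fatty acid synthesis, glycolysis, hypoxia response, collagen crosslinking, elastic fibres, inhibitors of mineral deposition, inflammatory cytokines, NF-kB feedback and adventitial fibroblast markers. Notch genes, p53 targets and Schwann cell markers were the 3 that went from higher to lower. Guanylate binding proteins, MHC class I presentation and muscle markers were the 3 mostly kept. The muscle markers were kept in no common direction: of 6 tested, 1 stayed higher, 2 stayed lower and 2 went from higher to lower. The p53, Schwann and muscle lists counted as mixed in 10 or more of the 20 alternatives tried. The medians below stand beside medians over all genes tested of 0.04 at day 1 and -0.01 at day 14, with a median change of -0.05. Counts of members below stand beside shares of all genes tested of 12.4% from lower to higher, 14.1% from higher to lower and 5.60% kept.

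**Figure D2:**
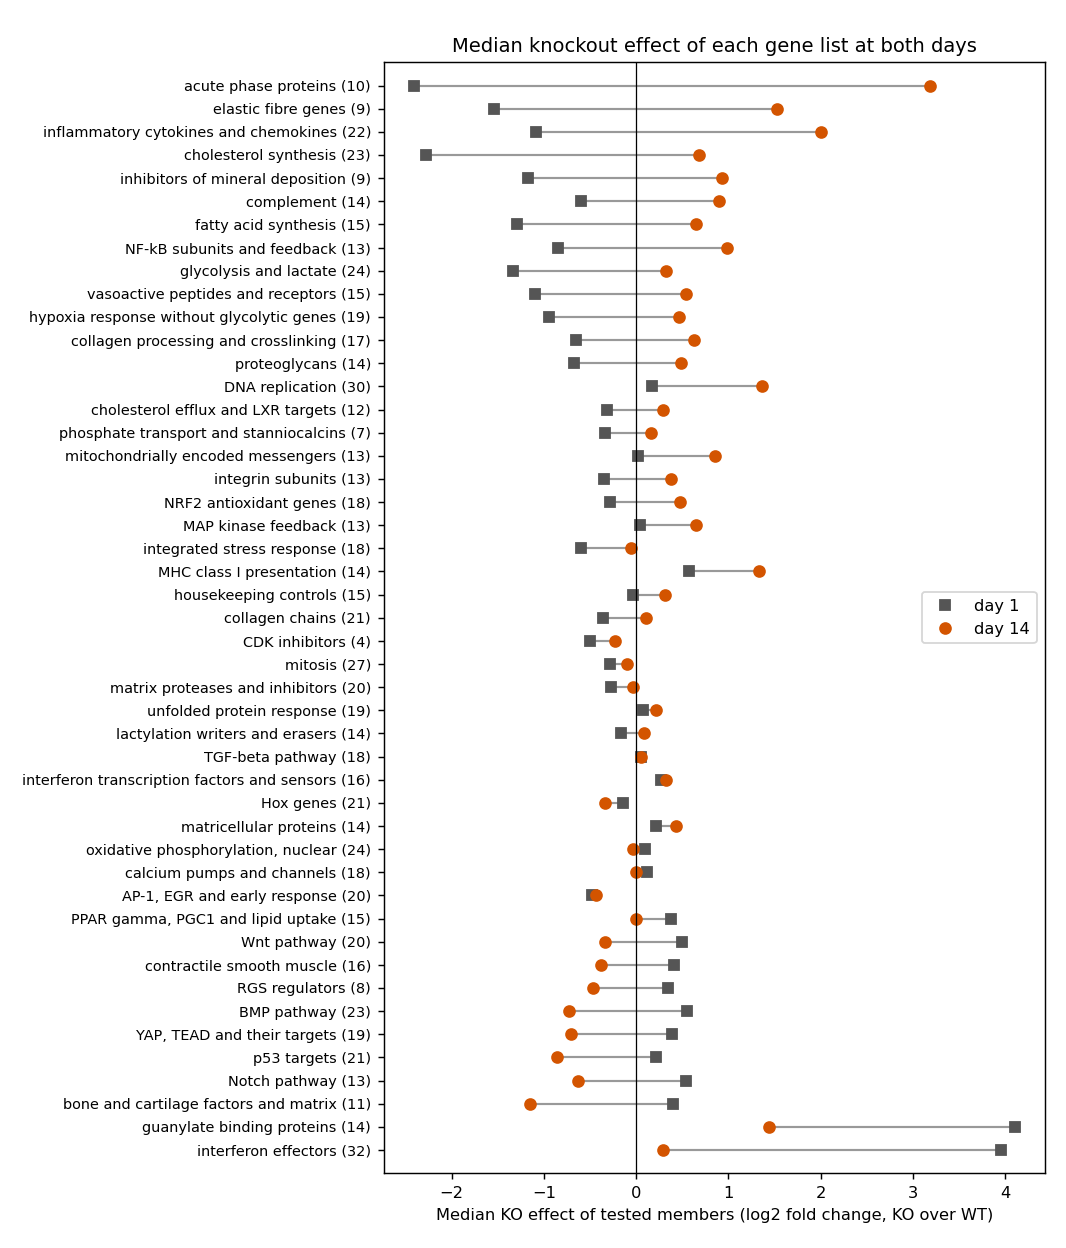
Median knockout effect of the tested members of each gene list (number tested in brackets), as log2 fold change of KO over WT, at day 1 (squares) and day 14 (circles), ordered by the median change. Acute phase proteins moved from -2.41 to 3.19 and stand at the top, and interferon effectors moved from 3.96 to 0.29 and stand at the bottom.

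Sterol and fatty acid synthesis were mostly reversed, from lower to higher. Cells make cholesterol from acetyl-CoA by the mevalonate pathway, under the transcription factor SREBP2, and fatty acids under SREBP1. All 23 genes of cholesterol synthesis were lower in KO at day 1 and all 23 had a higher effect at day 14, but the later rise above WT was smaller: 16 members (69.6%, against 12.4% of all genes) were higher in KO at day 14, and the median effect went from -2.28 to 0.68. Fdps, which makes farnesyl diphosphate, was at 27.6, 28.4 and 29.2 CPM in WT and 1.96, 1.29 and 1.23 in KO at day 1, and at 1.26, 2.46 and 5.68 CPM in WT and 11.9, 9.37 and 8.91 in KO at day 14. WT was above KO in every library of day 1 and below KO in every library of day 14, and the change was 5.91 ± 0.49 (log2, SE, adjusted p = 7.6e-08). Of 15 genes of fatty acid synthesis, 9 went from lower to higher, and the median went from -1.29 to 0.65. The desaturase Scd1 was at 1945, 1948 and 2015 CPM in WT and 347, 323 and 343 in KO at day 1, and at 264, 425 and 535 CPM in WT and 807, 722 and 754 in KO at day 14. Gpam, which starts glycerolipid synthesis, went the other way (0.41 to -0.78).

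Cholesterol efflux was mixed. Abca1, the transporter that loads cholesterol onto lipoproteins, was at 65.8, 66.7 and 67.5 CPM in WT and 2.35, 2.64 and 2.36 in KO at day 1, and at 1.96, 4.79 and 5.48 CPM in WT and 8.64, 11.6 and 14.8 in KO at day 14. Its KO effect therefore turned from -4.76 to 1.54. Ch25h, which makes 25-hydroxycholesterol, turned from -1.94 to 4.33. Apoe, the lipoprotein that carries the exported cholesterol, was kept higher (1.40 and 1.77).

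Glycolysis moved with the hypoxia response. Of 24 glycolytic genes 14 (58.3%) went from lower to higher, the median effect went from -1.34 to 0.32, and 18 changes were called higher. Ldha, which turns pyruvate into lactate, was at 1109, 1113 and 1144 CPM in WT and 455, 506 and 341 in KO at day 1, and at 692, 536 and 574 CPM in WT and 1518, 1392 and 1288 in KO at day 14. The groups did not overlap at either day, and the change was 2.59 ± 0.18 (adjusted p = 8.3e-09). Aldoa, aldolase A, was called at day 1 (-1.61) but not at day 14 (0.29), and its change of 1.90 ± 0.17 was called; without WT replicate 3 of day 14 it counted as reversed. Hk2 went from higher to lower (0.47 to -0.34; called at day 1 alone without KO replicate 2 of day 14), and Aldoc stayed lower (-3.53 and -2.28). Gapdh was read at 13.3 to 43.9 CPM, and since it has many near-identical pseudogene copies its counts are uncertain. Of 19 further hypoxia genes 11 (57.9%) went from lower to higher, with a median from -0.95 to 0.46. Ero1l, an oxidase of the endoplasmic reticulum, changed by 3.20 ± 0.22, and Bnip3, a mitophagy receptor, by 2.85 ± 0.22. Glycolysis was mixed with library size alone and with a separate fit of each day (11 to 17 members from lower to higher over the alternatives). The hypoxia list was mixed without KO replicate 1 of day 14 and with a separate fit of each day (8 to 11 members).

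The promoters of glycolytic genes are known for the core letters of the hypoxia response element, ACGTG. In RefSeq promoters (250 bases before to 50 after the start, build GRCm38.p6), all 24 glycolytic genes had an entry. Of these 15 (62.5%) held ACGTG on either strand, against 21.8% of all 27025 genes with a promoter there. That background takes in genes not tested here. Other lists stood above it too, such as p53 targets (47.1%), calcium pumps and channels (46.7%) and DNA replication (37.5%). Collagen chains (11.8%) and RGS regulators (14.3%) stood below it. Pgk1, phosphoglycerate kinase, and Slc2a1, the glucose transporter, are shown because both reversed (-1.58 to 0.59 and -1.45 to 1.45) and hold the core. Capitals mark the core on either strand. Pgk1 is from chrX:106186930-106186993 (plus strand) and Slc2a1 from chr4:119108689-119108733 (plus strand).
Pgk1: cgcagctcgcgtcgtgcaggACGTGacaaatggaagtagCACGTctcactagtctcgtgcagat
Slc2a1: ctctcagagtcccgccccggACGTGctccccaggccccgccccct
A match is a description of these letters, and no factor was measured here.

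Matrix genes did not move as 1 group. Enzymes that process and crosslink collagen were mostly reversed: 12 of 17 (70.6%) went from lower to higher, with a median from -0.65 to 0.63. Lox, lysyl oxidase, which crosslinks collagen and elastin, was at 909, 967 and 910 CPM in WT and 120, 97.2 and 133 in KO at day 1. At day 14 it was at 115, 255 and 282 CPM in WT and 2254, 2324 and 2223 in KO. KO at day 14 was the highest group and KO at day 1 and WT at day 14 the lowest, and the change was 6.38 ± 0.34 (adjusted p = 4.4e-10). Bmp1, the protease that trims procollagen, changed by 2.83 ± 0.14. Loxl4 went the other way (0.59 to -0.52), and P3h2, a prolyl hydroxylase, stayed lower (-1.06 and -2.74). Of 9 elastic fibre genes 6 (66.7%) went from lower to higher and the median went from -1.54 to 1.53, with Fbln1 at -2.11 and 2.55 and Mfap5 at -2.85 and 1.53.

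The collagen chains themselves were mixed, with 6 of 21 from lower to higher, 2 from higher to lower and 3 kept. The chains of collagen VI, a beaded filament at the cell surface, reversed: Col6a1 changed by 5.49 ± 0.40 and Col6a2 by 5.54 ± 0.36. The type I chain Col1a1 stayed lower in KO (-1.0 and -1.59), as did Col4a5, a basement membrane chain. Col4a5 was at 136, 133 and 137 CPM in WT and 29.4, 29.5 and 26.9 in KO at day 1, and at 22.3, 30.1 and 30.3 CPM in WT and 2.25, 2.11 and 2.27 in KO at day 14. Its level thus descended from WT at day 1 to KO at day 14, and the KO effect became larger, by -1.39 ± 0.18. Col11a1 and Col7a1, the anchoring fibril chain, went from higher to lower (1.01 to -4.41 and 1.84 to -2.31). Among proteoglycans 6 of 14 went from lower to higher, among them Sdc4 (-1.59 to 1.18) and Bgn (-1.83 to 0.44), while Dcn (-0.71 and -1.46) and Ogn (-1.47 and -1.63) stayed lower. Bgn was called at day 1 alone without WT replicate 1 or without KO replicate 1 of day 14. Of the matricellular proteins, Thbs1 and Thbs2, thrombospondins that bind matrix and cells, reversed by 3.65 ± 0.25 and 2.84 ± 0.17, Ctgf went from 3.04 to -0.71, and Sparcl1 stayed higher (3.54 and 2.05). Tnc stayed lower (-0.66 and -0.32), except without WT replicate 3 of day 14, when it was called at day 1 alone. Among proteases and inhibitors, 5 of 20 went from lower to higher (Adamts4 -1.26 to 2.14, Timp1 -0.63 to 1.94) and 4 from higher to lower (Mmp10 2.18 to -3.53, Mmp12 4.56 to -1.33); Timp3 stayed lower (-0.47 and -2.22). Integrins followed the crosslinking enzymes in 5 of 13 members, with Itgb3 at -2.84 and 2.21 and Itgb8 at -2.21 and 2.25.

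Markers of adventitial fibroblasts, the matrix-producing cells of the outer vessel wall, moved in part with these matrix genes. Of 14 markers, all in both tables, 12 were tested. From lower to higher went 7 (58.3%), while 3 stayed lower and 1 stayed higher. Lox, Dcn, Col14a1 and Serping1 also stand in the lists of this text. Their summed level was 2121 to 2197 CPM in WT and 642 to 802 in KO at day 1, and 900 to 1509 CPM in WT and 3353 to 3424 in KO at day 14. Lox alone averaged 2267 CPM in KO at day 14, most of that group's sum, and 928 CPM in WT at day 1. The markers Pi16 and Dpt had only 2 to 82 and 0 to 25 counts per library. The marker Cd248 changed by 6.63 ± 0.32, whereas Cd34 stayed lower in KO (-0.86 and -2.39). Their part in the matrix result was not tested, and in bulk RNA fewer cells of a type and less RNA per cell cannot be told apart.

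Inhibitors of mineral deposition were mostly reversed, and genes of bone and cartilage were mixed. Of 9 tested inhibitors of mineral deposition, 7 (77.8%) went from lower to higher in KO and the median went from -1.17 to 0.93. Enpp1, which makes the mineral inhibitor pyrophosphate, was at 9.66, 8.99 and 9.54 CPM in WT and 4.42, 3.42 and 4.33 in KO at day 1. At day 14 it was at 2.52, 8.80 and 11.5 CPM in WT and 239, 229 and 224 in KO, so KO at day 14 stood apart from all other groups, and the change was 6.14 ± 0.44. Mgp, matrix Gla protein, was at 26.4, 22.1 and 24.1 CPM in WT and 3.64, 5.61 and 3.40 in KO at day 1, and at 1.36, 1.13 and 0.997 CPM in WT and 35.4, 44.8 and 42.9 in KO at day 14, a change of 7.66 ± 0.27. Spp1, osteopontin, changed by 3.83 ± 0.16. Nt5e, which makes adenosine at the cell surface, stayed lower (-0.94 and -1.70).

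Alpl, tissue-nonspecific alkaline phosphatase, which breaks down pyrophosphate and β-GP, went the opposite way. It had 3 counts over all 3 WT libraries at day 1 and 681 in KO, a ratio of 316 (exact 95% interval 108 to 1534, counting error only). At day 14 it was at 8.26, 15.8 and 19.0 CPM in WT and 1.22, 1.13 and 0.864 in KO, an effect of -3.75. Of 11 tested bone and cartilage genes 3 went from higher to lower, 2 from lower to higher and 1 was kept. The cartilage factor Sox5 went from -2.51 to 4.54. Sox9, its partner, was called at day 14 alone (0.39 and -1.15), though from higher to lower without WT replicate 1 of day 14. Runx2, the master factor of bone formation, was slightly lower at both days (-0.62 and -0.41), with a change of 0.21 ± 0.20 that was not called (adjusted p = 0.38); 6 of 20 alternatives called it at day 1 alone, among them the leaving out of WT replicate 2 or 3 or of any KO replicate of day 14. Of 7 phosphate genes 3 went from lower to higher. Stc1, stanniocalcin 1, a calcium and phosphate hormone, was at 69.3, 76.8 and 80.6 CPM in WT and 1.57, 0.786 and 2.31 in KO at day 1, and at 1.16, 3.03 and 4.24 CPM in WT and 87.9, 45.7 and 82.9 in KO at day 14. Phex, a peptidase tied to phosphate balance, went from -5.14 to 1.35.

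Many inflammatory genes went from lower in KO to higher. Of 22 tested cytokines and chemokines 11 (50.0%) reversed in this direction, 18 changes were called higher, and the median went from -1.09 to 2.0. The list counted as mixed in 8 of 20 alternatives, among them the leaving out of WT replicate 2 or 3 of day 1, of any KO replicate of day 1, or of KO replicate 1 or 3 of day 14, with 11 to 13 members reversed in this direction throughout. Il33, an alarmin of stromal cells, was at 682, 695 and 672 CPM in WT and 61.7, 46.5 and 61.3 in KO at day 1, and at 41.5, 103 and 108 CPM in WT and 450, 274 and 343 in KO at day 14. Nos2, inducible nitric oxide synthase, changed by 10.14 ± 0.80. Il1rn, the interleukin 1 receptor antagonist, stayed higher (1.45 and 3.33), and the interferon-induced chemokine Cxcl10 went from 4.12 to -1.30. NF-kB subunits and inhibitors, which the pathway itself induces, reversed in 9 of 13 (69.2%), with a median from -0.85 to 0.98, Bcl3 at -3.40 and 3.15, Nfkbiz at -1.91 and 1.79, and Birc3 the other way (3.08 to -2.14).

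The largest rises of the knockout effect included acute phase proteins. Lcn2, a siderophore-binding protein, was at 11.1, 8.92 and 8.51 CPM in WT and 0, 0.0561 and 0.148 in KO at day 1. At day 14 it was at 1.06, 0.352 and 0.897 CPM in WT and 125, 51.5 and 56.6 in KO, and its change of 13.51 ± 0.71 was the largest rise among genes of at least 3 in mean log2 CPM. Hp, haptoglobin, changed by 9.44 ± 0.77 and Saa3, a serum amyloid, by 8.26 ± 0.42; Saa3 had reached 13.8 to 17.9 CPM in WT at day 14, against 3.58 to 3.98 at day 1. Of 10 acute phase genes 4 reversed in this direction and 1 was kept higher. In complement 6 of 14 reversed, with C3, its central component, at -3.51 and 2.95 and Serping1, the C1 inhibitor, at -5.00 and 1.70. The summed level of leukocyte markers, 12 of 14 in both tables, did not move in this way. It was 62.1 to 67.9 CPM in WT and 61.8 to 74.0 in KO at day 1, and 66.1 to 98.2 in WT and 53.5 to 57.8 in KO at day 14. Most of this sum was Cd68 (18.9 to 71.3 CPM) and Cd14 (15.9 to 42.9 CPM). The members were divided: of 5 tested 1 went from lower to higher, 1 from higher to lower and 1 stayed lower. The pan-leukocyte marker Ptprc had 0 to 20 counts per library.

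Other large rises included that of a peptide receptor. Calcrl, the receptor of adrenomedullin and CGRP, was at 43.6, 41.2 and 45.6 CPM in WT and 4.64, 2.53 and 2.95 in KO at day 1, and at 2.27, 2.60 and 2.99 CPM in WT and 61.0, 61.6 and 66.0 in KO at day 14, a change of 8.27 ± 0.24 (adjusted p = 7.5e-13). Ramp3, an accessory protein that sets the receptor's ligand preference, did the reverse (3.69 to -4.61), so the receptor and Ramp3 were high in opposite groups. Ramp1 and Ramp2, of the same list, were not tested. Rnf150 changed by 8.11 ± 0.41, Trib2, a pseudokinase, by 7.37 ± 0.26 and Ccser1 by 7.21 ± 0.33. Among vasoactive genes 6 of 15 (40.0%, against 12.4% of all genes) went from lower to higher and 5 (33.3%, against 14.1%) from higher to lower. Agt, angiotensinogen, went from -6.24 to 2.84, and Npr3, the natriuretic peptide clearance receptor, from 0.89 to -3.13, though Npr3 was called at day 14 alone in 7 of 20 alternatives, among them the leaving out of any WT replicate or of KO replicate 1 or 3 of day 1.

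**Figure D3:**
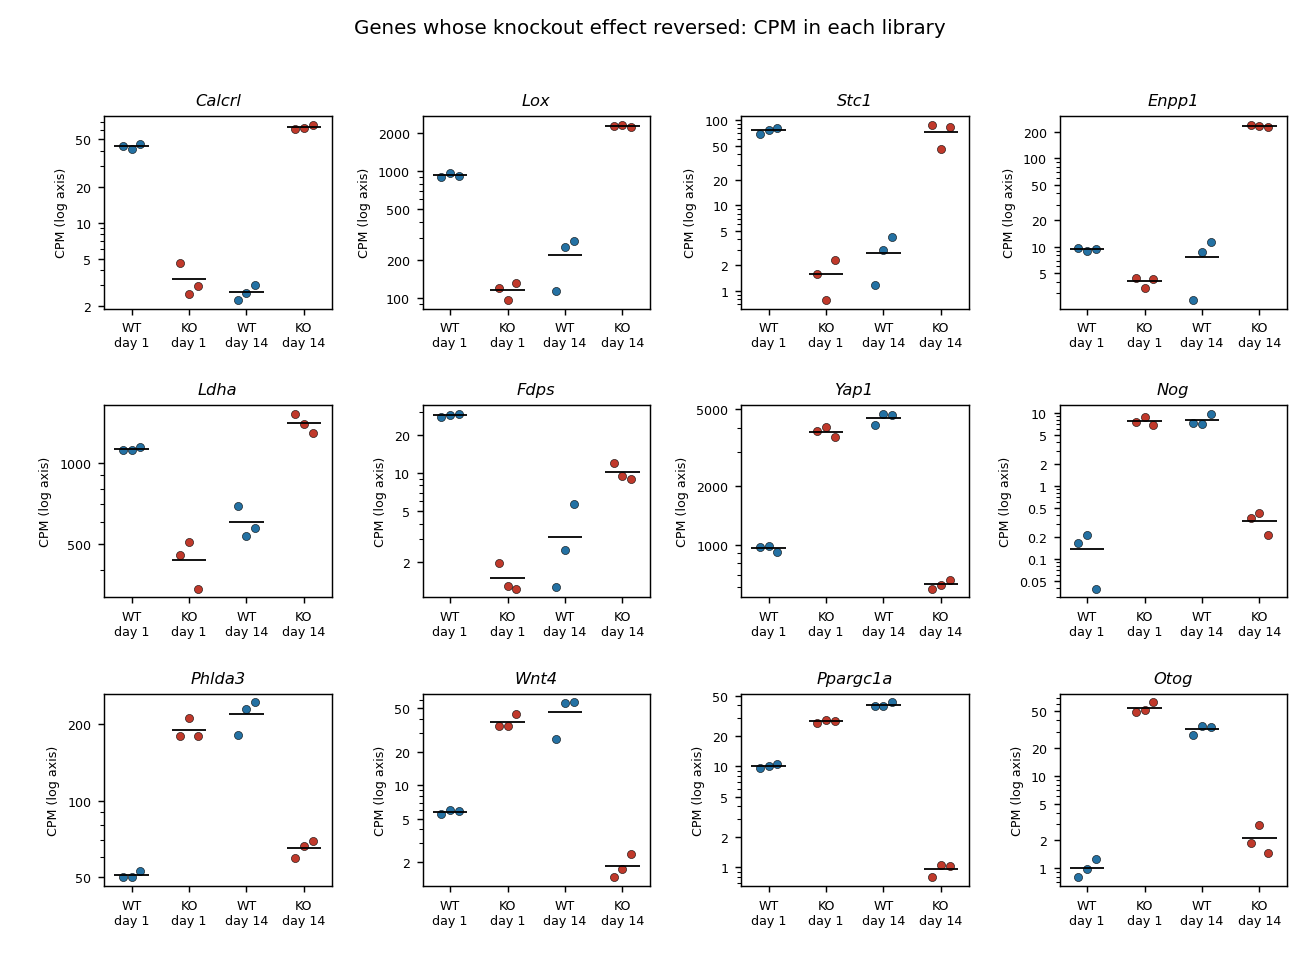
CPM (log axis) in each library of 12 genes whose knockout effect reversed; points are libraries (blue WT, red KO) and bars group means. From Calcrl to Fdps, KO is below WT at day 1 and above it at day 14; from Yap1 to Otog the order is turned.

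Lists of developmental signalling held many genes that went from higher to lower in KO, although of the BMP, Wnt and Notch lists only Notch reached 50%. In the BMP pathway, a branch of TGF-beta signalling that drives bone formation, 10 of 23 (43.5%, against 14.1% of all genes) went from higher to lower and 3 from lower to higher, with a median from 0.55 to -0.72. Nog, the BMP antagonist noggin, was at 0.166, 0.211 and 0.0394 CPM in WT and 7.44, 8.81 and 6.89 in KO at day 1. At day 14 it was at 7.26, 6.97 and 9.82 CPM in WT and 0.365, 0.423 and 0.216 in KO, a change of -10.30 ± 0.48. Another antagonist, Grem1 (gremlin 1), moved oppositely: it was at 811, 820 and 789 CPM in WT and 109, 89.2 and 107 in KO at day 1, and at 97.8, 92.9 and 96.1 CPM in WT and 1168, 893 and 1030 in KO at day 14. The BMP effector Smad9 went from 3.75 to -4.41, while the receptor Acvrl1 stayed higher (1.97 and 1.42). Of the type I receptors, Acvr1 went from lower to higher (-0.80 to 0.53). The TGF-beta list proper was mixed, with 2 members from lower to higher, 3 from higher to lower and 2 kept. Of its 18 tested members these were 11.1%, 16.7% and 11.1%, against 12.4%, 14.1% and 5.60% of all genes. Tgfb2 went from 1.13 to -2.10 and Tgfbr3 from -0.90 to 0.69.

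In the Wnt and Notch lists the reversed members went from higher to lower, except Tcf7. Of 20 Wnt pathway genes 9 (45.0%) went from higher to lower. Wnt4 was at 5.49, 5.94 and 5.83 CPM in WT and 34.6, 34.7 and 44.5 in KO at day 1, and at 26.6, 55.7 and 56.7 CPM in WT and 1.46, 1.76 and 2.38 in KO at day 14. Wnt5a changed by -8.35 ± 0.39. The receptor Fzd1 stayed higher (0.54 and 1.96), and Tcf7, a Wnt-responsive factor, went from -1.49 to 0.61. Of 13 Notch genes 7 (53.8%) went from higher to lower, with a median from 0.54 to -0.63; the ligand Jag2 went from 1.14 to -1.20 and the target Hey1 from 2.47 to -2.66. This count was 5 to 7 over the alternatives, and the list counted as mixed in 9 of 20, among them the leaving out of WT replicate 1 or 2 or of any KO replicate of day 1, or of WT replicate 1 or KO replicate 3 of day 14.

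Yap1, the coactivator of the Hippo pathway, was at 974, 988 and 918 CPM in WT and 3843, 4068 and 3587 in KO at day 1, and at 4166, 4756 and 4676 CPM in WT and 592, 616 and 659 in KO at day 14. Its change of -4.86 ± 0.11 (adjusted p = 1.1e-13) was called. Its relative Wwtr1 (TAZ) did the reverse, from -1.28 to 0.45. Of 19 genes of YAP, TEAD and their targets 8 (42.1%) went from higher to lower and 2 from lower to higher. Birc2, an inhibitor of apoptosis, changed by -5.16 ± 0.16, and Amotl1 by 0.79 ± 0.09.

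Targets of p53, the factor that answers DNA damage, reversed from higher to lower in 11 of 21 (52.4%), 10 or 11 over the alternatives, so that the list counted as mixed in 16 of 20, among them every single library left out except KO replicate 3 of day 1 and WT replicate 3 of day 14. Phlda3, an Akt inhibitor, was at 49.9, 50.2 and 53 CPM in WT and 180, 211 and 179 in KO at day 1, and at 182, 230 and 244 CPM in WT and 59.6, 66.2 and 69.3 in KO at day 14. Btg2 changed by -3.38 ± 0.16, and the cell cycle inhibitor Cdkn1a by -2.15 ± 0.10. Fas, a death receptor, went the other way (-0.38 to 2.68), but its day 1 effect was lost in 10 of 20 alternatives, among them the leaving out of any WT replicate of day 1, and Sesn1 went from -0.94 to 0.71. Of the other CDK inhibitors, Cdkn1b stayed lower (-0.58 and -0.57) and Cdkn2c went from -0.42 to 0.93.

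Early response genes and MAP kinase feedback were mixed, with members reversed in both directions. The 3 EGR factors of the list went from lower to higher, with Egr1 at -1.78 and 2.86 and Egr3 at -2.96 and 4.21. Egr3 was at 12.4, 11.4 and 10.0 CPM in WT and 1.01, 1.68 and 1.63 in KO at day 1, and at 1.31, 1.27 and 1.05 CPM in WT and 19.8, 22.8 and 24.7 in KO at day 14. Atf3 (0.88 to -2.04) and Ier5 (1.49 to -1.07) went from higher to lower, and Fos (-1.12 and -1.63) and Klf4 (-0.63 and -0.69) stayed lower. Of the MAP kinase phosphatases Dusp1 went from 1.65 to -2.16 and Dusp8 from 1.33 to -1.66, whereas Dusp6, which acts on ERK, went from -2.0 to 0.77 and Dusp2 from -1.18 to 1.16. The relatives of Nr4a3 reversed from lower to higher. Nr4a2 was at 82.3, 81.5 and 80.0 CPM in WT and 13.3, 14.3 and 12.1 in KO at day 1, and at 16.6, 21.5 and 25.2 CPM in WT and 59.9, 49.7 and 72.8 in KO at day 14, a change of 4.15 ± 0.21. Nr4a1 changed by 2.19 ± 0.30. Thus both relatives were higher in KO at day 14, when Nr4a3 was most reduced, and both were lower in KO at day 1.

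The 10 largest falls of the knockout effect were ranked among genes of at least 3 in mean log2 CPM, with predicted genes passed over. Below that limit some genes fell further than the last of the 10, such as Alpl (-11.82). All 10 were at 5.66 CPM or below in every WT library of day 1, from Slc6a12 with no count to Nlrp2 at 4.73 to 5.66 CPM. Slc6a12, a betaine and GABA transporter, had 0 counts in WT at day 1 and was at 27.5, 29.1 and 34.7 CPM in KO, at least 795-fold higher (against a floor of 3 counts over the group). At day 14 it was at 22.5, 20.1 and 20.7 CPM in WT and 1.22, 1.34 and 1.03 in KO. Rgs1, which shortens G protein signals, was at 0.166, 0.105 and 0.0394 CPM in WT and 34.3, 26.2 and 38.4 in KO at day 1, and at 37.1, 43.4 and 35.9 CPM in WT and 1.22, 0.352 and 0.594 in KO at day 14, a change of -13.96 ± 0.42. Ggt1, gamma-glutamyltransferase, changed by -12.06 ± 0.41, Prr9 by -11.89 ± 0.51 and Clca3b by -10.19 ± 0.77. Lce1g, of the skin's cornified envelope, changed by -10.04 ± 0.44, Atp13a4 by -9.90 ± 0.28 and Otog, an inner ear matrix protein, by -9.69 ± 0.30. Xirp1, an actin-binding muscle protein, changed by -9.65 ± 0.39 and Nlrp2 by -9.61 ± 0.46. In these genes KO at day 1 and WT at day 14 were the high groups, and WT at day 1 and KO at day 14 were low. Ranking by the fall of the effect favours genes with that pattern, so sharing it is no separate result.

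Calcium handling was mixed. The calcium pumps of the endoplasmic reticulum Atp2a1 (-2.92 to 1.82) and Atp2a3 (-3.83 to 2.47) went from lower to higher, and the ryanodine receptors Ryr1 (3.10 to -2.68) and Ryr3 (1.35 to -2.34), which release calcium from it, from higher to lower. Over 18 tested genes 4 (22.2%, against 12.4% of all genes) went from lower to higher and 3 (16.7%, against 14.1%) from higher to lower. Of the RGS regulators, besides Rgs1, Rgs10 went from 1.49 to -2.27 and Rgs3 from -1.96 to 0.64. In the lipid uptake list, Ppargc1a (PGC1 alpha), the coactivator of mitochondrial genes, was at 9.49, 10.0 and 10.4 CPM in WT and 26.6, 28.5 and 28.3 in KO at day 1, and at 39.6, 39.8 and 42.7 CPM in WT and 0.791, 1.06 and 1.03 in KO at day 14. Its change was -6.88 ± 0.17. Fabp4, a fatty acid carrier, went from 5.57 to -1.07, Cpt1a, which admits fatty acids to mitochondria, from -1.01 to 0.62, and lipoprotein lipase, Lpl, stayed higher (1.81 and 1.23). Adipocyte markers were carried by Lpl: 8 of 10 were in both tables, with summed levels of 103 to 118 CPM in WT and 330 to 414 in KO at day 1 and 337 to 574 in WT and 982 to 1160 in KO at day 14, while Adipoq had 0 to 4 counts per library.

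Interferon-induced genes did not form 1 class. Interferons signal through JAK kinases and STAT factors to genes with a response element in their promoters; effectors such as the OAS and IFIT families act on viral RNA, guanylate binding proteins (GBPs) act on intracellular pathogens, and the MHC class I genes show peptides to T cells. At day 1, 30 of 32 effectors were higher in KO, with a median of 3.96. At day 14, 14 were higher and 9 lower, with a median of 0.29: 13 (40.6%, against 5.60% of all genes) were kept higher, 8 (25.0%) went from higher to lower, 1 from lower to higher, and 9 were called at day 1 alone. The change was called lower for 27. Usp18, the negative regulator of the interferon receptor, was at 0.208, 0.0351 and 0.197 CPM in WT and 29.8, 31.4 and 20.4 in KO at day 1, and at 111, 81.7 and 70.0 CPM in WT and 30.1, 42.0 and 45.9 in KO at day 14. Its change of -8.68 ± 0.44 thus came with a higher level in WT at day 14 than in any other group. Oas3, an RNA sensor, did the same (6.77 to -1.18, change -7.95 ± 0.48). Mx1 (2.45 and 2.20) and Parp14 (2.70 and 2.11) were kept higher, and Ifitm3, which blocks viral entry, went from lower to higher (-1.17 to 0.53). The OAS genes and GBPs include near-identical copies, so counts of single members are uncertain.

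For GBPs the same direction was kept: 8 of 14 (57.1%) were higher at both days and none was called lower at either, although 10 changes were called lower and the median went from 4.10 to 1.44. Gbp2b, a GBP outside the list, was at 1.87, 2.07 and 1.77 CPM in WT and 12.4, 7.02 and 12.2 in KO at day 1, and at 30.9, 22.9 and 22 CPM in WT and 156, 189 and 215 in KO at day 14. Levels climbed with day in both genotypes while KO stayed above WT, and the change of 0.42 ± 0.30 was not called (adjusted p = 0.24). Gbp5 did the same (2.43 and 2.70). Iigp1, a GTPase of the same defence, had 3 counts in WT at day 1 and 133 in KO, a ratio of 61.6 (exact 95% interval 20.6 to 303, counting error only), and at day 14 an effect of 2.06. Of 14 genes of MHC class I presentation 9 (64.3%) were kept higher and all 14 were higher in KO at day 14; the median went from 0.57 to 1.33. Psmb9, a subunit of the immunoproteasome, was at 0.125, 0.211 and 0.315 CPM in WT and 2.74, 1.07 and 2.41 in KO at day 1, and at 6.50, 4.29 and 3.19 CPM in WT and 18.9, 20.9 and 20.9 in KO at day 14. Psmb8 was at 2.87 and 1.85 and B2m, the light chain of MHC class I, at 0.78 and 0.73. The exceptions were H2-T23 (-1.55 to 1.16) and Tapbp, tapasin (-0.96 to 1.54). Of the interferon transcription factors and sensors 5 of 16 were kept higher, among them the RNA sensors Dhx58 (1.67 and 1.55) and Tlr3 (1.77 and 1.54).

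Promoters of 4 genes are shown, 2 whose knockout effect was small at day 14 and 2 that kept it. Isg15 went from 3.82 to 0.26 and Ifit3 from 6.14 to 0.69, whereas Gbp2 was at 1.54 and 3.14 and Gbp3 at 3.95 and 1.95. Capitals mark every match to the interferon response element (GAAA, any 2 bases, GAAA) on either strand, with overlapping matches joined. Of 27025 genes in the RefSeq table (GRCm38.p6) 4.0% held these letters, and of 12 MHC class I genes with an entry 4 did.
Isg15: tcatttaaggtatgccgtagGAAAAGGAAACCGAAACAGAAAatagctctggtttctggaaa
Ifit3: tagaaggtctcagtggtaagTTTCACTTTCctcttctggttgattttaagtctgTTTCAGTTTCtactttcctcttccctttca
Gbp2: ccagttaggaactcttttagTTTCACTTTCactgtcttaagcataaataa
Gbp3: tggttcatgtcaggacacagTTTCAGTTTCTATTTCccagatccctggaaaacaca
They come from chr4:156200855-156200916 (minus strand), chr19:34583353-34583436 (plus), chr3:142620584-142620633 (plus) and chr3:142559979-142560034 (plus). Only promoters that hold the letters could be shown, so their presence in genes of both kinds is no result.

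**Figure D4:**
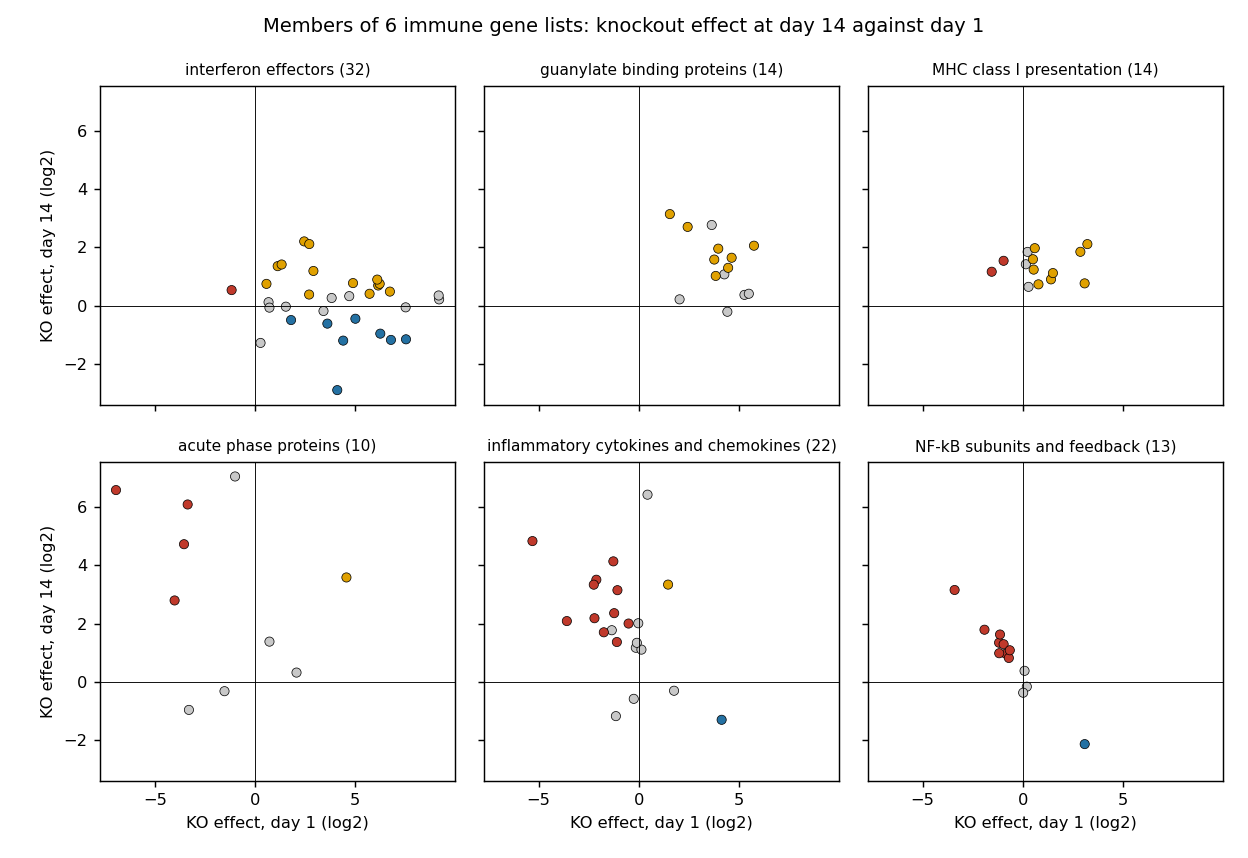
Knockout effect at day 14 (vertical axis) against day 1 (horizontal axis), both log2 fold change of KO over WT, for the tested members of 6 immune lists; blue members went from higher to lower, red from lower to higher, yellow stayed higher, and grey were called at 1 day or neither. GBPs and MHC class I genes lie mostly in the upper right, acute phase, cytokine and NF-kB genes mostly in the upper left, and interferon effectors along the right with effects at day 14 on both sides of 0.

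The 8 genes kept higher with the largest smaller effect of the 2 days were Kcnj15, Islr, Cyfip2, Trpc5os, Ncf4, Gbp2b, Clec4e and Gbp5, in that order. Ncf4, a subunit of the phagocyte NADPH oxidase, was at 13.2, 11.1 and 12.5 CPM in WT and 71.8, 52.5 and 83.8 in KO at day 1, and at 46.9, 69.2 and 68.0 CPM in WT and 365, 314 and 357 in KO at day 14. Its effect was 2.50 at both days, with a change of -0.01 ± 0.21. Clec4e, a receptor for glycolipids, was at 2.86 and 2.44, Kcnj15, a potassium channel, at 3.44 and 3.21, and Cyfip2, a regulator of actin, at 3.34 and 2.90. Islr was at 2.90 and 3.68. Trpc5os was at 2.65 and 2.91, but it lies opposite another gene and the use of strand is not given in the sources used here.

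Acta2 was kept higher with a nearly equal effect: it was at 253, 281 and 290 CPM in WT and 666, 644 and 712 in KO at day 1, and at 542, 728 and 732 CPM in WT and 1595, 1829 and 1458 in KO at day 14. The groups did not overlap at either day, and the change was -0.01 ± 0.16 (adjusted p = 0.96). The rest of the contractile list was mixed, with 3 of 16 kept higher, 1 kept lower, 4 from higher to lower and 1 from lower to higher. Myl9, a regulatory light chain of myosin, went from 4.19 to -1.41, while Smtn, smoothelin, stayed lower (-0.88 and -0.75) and Ldb3 went from -0.53 to 1.86. Myh11 went from 2.35 to -1.77 at under 1 CPM throughout, and its day 14 call was lost without WT replicate 2 or 3 or KO replicate 1 or 3 of day 14.

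The 8 genes kept lower that the same rule names were Col4a5, Npy4r, Slco4a1, Krt19, Mef2c, Fam213a, Tspan11 and Trpm6. Krt19, an epithelial keratin, was at 70.3, 69.9 and 65.7 CPM in WT and 14.8, 20.5 and 14.2 in KO at day 1, and at 12.8, 15.9 and 18.4 CPM in WT and 2.98, 2.96 and 1.84 in KO at day 14. Mef2c, a muscle transcription factor, was at -1.99 and -2.28, and Slco4a1, an organic anion transporter, at -2.48 and -3.17. Npy4r, a neuropeptide Y receptor, was at -1.88 and -2.60, Tspan11 at -3.00 and -2.34 and Fam213a at -2.83 and -2.78, with changes that were not called. Trpm6, a magnesium channel, was at -3.94 and -1.89, and its smaller effect at day 14 was a called change of 2.05 ± 0.42. Among the genes kept higher, 105 of 438 had a called change, 45 with a larger and 60 with a smaller effect at day 14; among those kept lower 140 of 456 had one, 77 larger and 63 smaller.

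**Figure D5:**
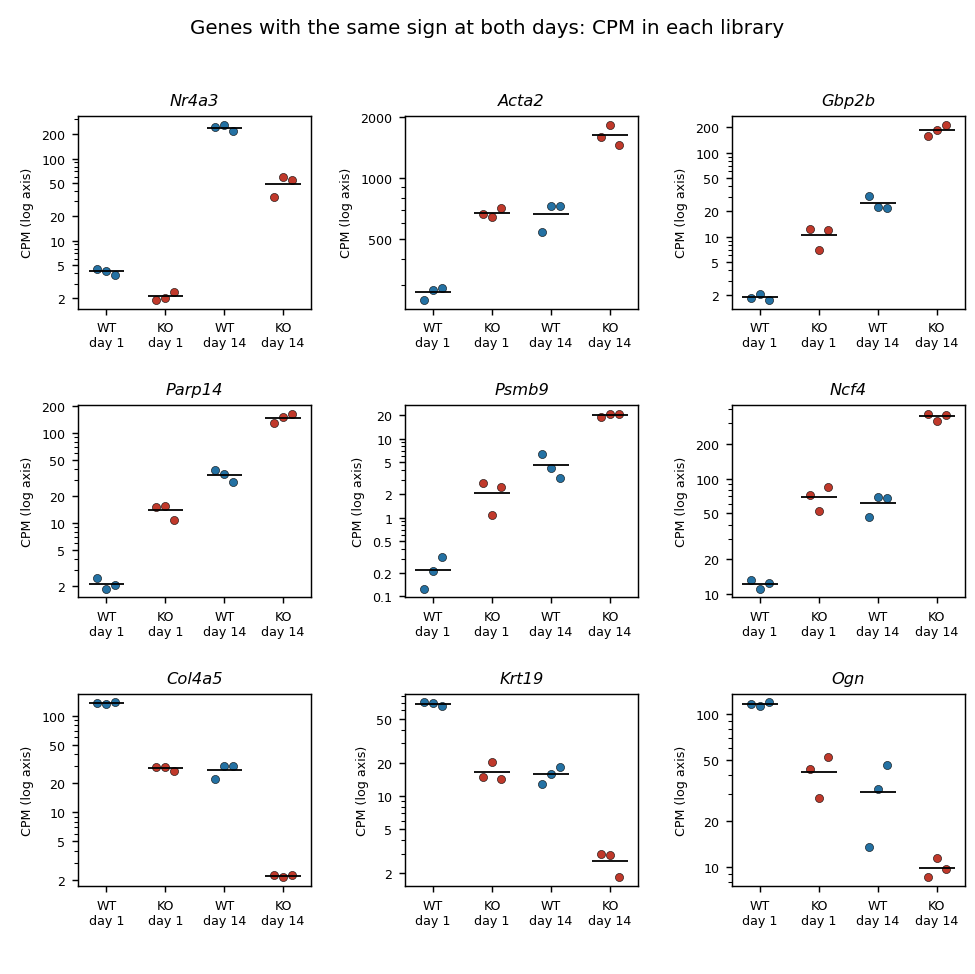
CPM (log axis) in each library of 9 genes with the same sign of the knockout effect at both days; points are libraries (blue WT, red KO) and bars group means. Acta2 to Ncf4 climb from WT at day 1 to KO at day 14, Col4a5, Krt19 and Ogn descend, and Nr4a3 is high at day 14 and lower in KO at both days.

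Cell cycle genes followed another pattern. All 30 genes of DNA replication were higher in KO at day 14; 23 of them were called at day 14 alone (19.9% of all genes were), 5 were kept higher and 2 went from lower to higher, and the median went from 0.17 to 1.37. The helicase subunit Mcm6 was at 119, 112 and 117 CPM in WT and 96.6, 90.2 and 84.0 in KO at day 1, and at 120, 101 and 103 CPM in WT and 319, 333 and 305 in KO at day 14, a change of 1.93 ± 0.12. The number kept higher or lower was 3 to 13 over the alternatives. Tyms, thymidylate synthase, went from -0.48 to 2.14, its day 1 call being lost in 7 of 20 alternatives, among them the leaving out of any WT replicate or of KO replicate 1 or 3 of day 1. Prim1, a primase, was kept higher (0.75 and 1.36), except without WT replicate 2 or 3 or KO replicate 2 of day 1. Mitotic genes were less uniform. Of 27, 0 were higher and 13 lower in KO at day 1, and 8 were higher and 6 lower at day 14. From lower to higher went 3 and 4 stayed lower, with medians of -0.28 and -0.10. Their change was called higher for 13 and lower for 3, with a median change of 0.46. For replication it was called higher for 21 of 30 and lower for 0, with a median change of 0.95. Ccnb2, a mitotic cyclin, was at -1.14 and -0.59 and Ube2c at -0.43 and -0.95. Mki67, which marks dividing cells, went from -0.56 to 0.87, its day 1 call being lost without WT replicate 1 or KO replicate 1 or 3 of day 1.

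Nuclear genes of oxidative phosphorylation showed small effects with no common direction. Of 24, 2 went from lower to higher, 4 from higher to lower and 2 were kept. These were 8.33%, 16.7% and 8.33%, against 12.4%, 14.1% and 5.60% of all genes. The medians were 0.09 and -0.04. Of 13 messengers of the mitochondrial genome 10 were higher in KO at day 14 and none was called lower. Of these 4 had been lower at day 1, with mt-Cytb at -0.64 and 1.78 and mt-Nd4 at -1.0 and 1.35. The summed level of the 13 was 43417 to 46970 CPM in WT and 34292 to 45493 in KO at day 1, and 30255 to 32139 in WT and 44035 to 48741 in KO at day 14, so WT at day 14 was the lowest group. The largest part of this sum was mt-Co1, at 18922 to 29056 CPM. By contrast mt-Nd3, mt-Nd4l and mt-Atp8 had 34 counts or fewer in every library. The bearing of the summed level on the other results was not tested. Stress lists were mixed. Of 19 genes of the unfolded protein response 2 (10.5%, against 12.4% of all genes) went from lower to higher and 2 (10.5%, against 5.60%) were kept. In the integrated stress response Ddit3 (CHOP), a death-linked factor, went from 1.16 to -1.65 while Slc7a11, the cystine transporter, went from -0.96 to 1.21. Antioxidant genes of NRF2 were divided, with 8 of 18 from lower to higher (G6pdx, which makes NADPH, -1.32 to 1.17) and 5 from higher to lower (Txnrd1, thioredoxin reductase, 0.71 to -0.81). Of 14 writers and erasers of lactylation, a lactate-derived mark, 3 (21.4%, against 12.4% of all genes) went from lower to higher, among them Hdac1 (-0.80 to 0.93) and Hdac3 (-0.59 to 0.76). From higher to lower went 1 (7.14%, against 14.1%), Sirt1 (0.81 to -0.45). Of 21 Hox genes, which keep a cell's position in the body, none went from lower to higher, as 12.4% of all genes did. From higher to lower went 3 (14.3%, against 14.1% of all genes). Hoxb6 was at 1.14 and -1.64, and Hoxa9 stayed lower (-0.68 and -0.78). Of 15 housekeeping genes 4 went from lower to higher and 2 from higher to lower, where 26.5% of all genes reversed in either direction; Rplp0, a ribosomal protein gene, was at 0.26 and -0.45 and, without WT replicate 1 of day 1, was called at day 14 alone.

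The other marker lists ranged from low endothelial sums to higher pericyte sums. Endothelial markers summed to 21.6 to 23.2 CPM in WT and 5.71 to 7.44 in KO at day 1, and to 10.6 to 11.8 in WT and 8.46 to 9.65 in KO at day 14, with 11 of 14 in both tables, and Pecam1 had 0 to 20 counts per library. Pericyte markers, all 9 in both tables, summed to 319 to 341 CPM in WT and 206 to 208 in KO at day 1, and to 180 to 341 in WT and 603 to 710 in KO at day 14, so their sum was lower in KO at day 1 and, like that of the fibroblast markers beside the matrix genes, highest in KO at day 14. Pdgfrb, at 397 to 476 CPM, made up most of the sum in KO at day 14. Their part in the matrix result was not tested. Of 7 tested members 1 went from lower to higher and 2 from higher to lower. Cspg4 went from -1.74 to 1.12, and Abcc9 had 1 count in WT and 274 in KO at day 1, a ratio of 381 (exact 95% interval 67.8 to 15104, counting error only), and -3.63 at day 14. Of the mesothelial and epithelial markers, besides Krt19, Krt8 went from 1.84 to -4.45; their summed level was 399 to 407 CPM in WT and 362 to 371 in KO at day 1, and 282 to 424 in WT and 81.4 to 84.7 in KO at day 14. Msln, mesothelin, at 75.6 to 394 CPM, made up most of this sum in every library. Of 5 tested members 4 were called lower in KO at day 14 and 0 higher. Muscle markers summed to 37.6 to 40.4 CPM in WT and 66.0 to 73.5 in KO at day 1, and to 102 to 115 in WT and 29.5 to 35.4 in KO at day 14. Myod1, the factor of skeletal muscle, went from 3.36 to -3.51. Schwann and neural markers, 8 of 9 in both tables, summed to 76.7 to 82.7 CPM in WT and 199 to 225 in KO at day 1, and to 163 to 184 in WT and 61.9 to 75.4 in KO at day 14, and 4 of 5 tested were called lower in KO at day 14 and 0 higher. Most of this sum was Cryab, a small heat shock protein, at 52.7 to 209 CPM. Of the others Mbp went from 0.98 to -2.83 and Ngfr from 2.16 to -1.08, Ngfr losing its day 14 call in 11 of 20 alternatives, among them the leaving out of any WT replicate or KO replicate 1 of day 1, or of WT replicate 1 or any KO replicate of day 14. Sox10, which defines these cells, had 0 to 1 count per library.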

How the data were processed

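RNA of 12 libraries was analysed, 3 each of WT and NR4A3KO cells at day 1 and day 14. The authors deposited 1 table a day with raw counts of reads for each gene name, as whole numbers in every column. RNA was extracted in TRIzol and sequencing libraries came from an NEBNext Ultra kit, per the labels' protocols. The submitters' processing notes name the build mm9; aligner, counter, annotation and strandedness were not given in the sources, and counts of genes that overlap or have close copies are therefore uncertain. Columns named CTR were taken to be WT. Each table holds 1 day, so day and table cannot be told apart; a shift shared by all libraries of a table drops out of the change in knockout effect.

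Repeated lines with identical counts (43 and 53) and names turned into dates (26 a table, 0.254% and 0.232% of counts) were left out, which left 28425 and 30787 names, 26706 of them shared. Counts were fitted with edgeR 4.0.16 in R 4.3.3 (4 group means, TMM scaling, filterByExpr, quasi-likelihood F test, p-values adjusted by Benjamini-Hochberg across 15956 genes and called below 0.05; biological coefficient of variation 0.117). Standard errors are each log2 fold change divided by its root F. CPM use the scaled totals. On simulated counts (15535 genes), 67, 67 and 66 genes were changed 1.5-, 2- and 4-fold in KO at day 14 alone. All other genes were equal in the 4 groups, with 1 dispersion trend for all libraries. The test of the change recovered 50.7% of 1.5-fold, 92.5% of 2-fold and 100% of 4-fold changes, with 4.71% of calls false. In the real data 60.1% of genes were called and the spread differed between groups, so these shares need not hold there. No 2 libraries agreed within sampling noise (chi-square per gene 2.78 to 46.1, highest for WT replicate 1 of day 14).

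Genes named are Nr4a3; the 10 largest rises and 10 largest falls of the effect (mean log2 CPM of at least 3, predicted genes passed over); the 8 genes kept higher and 8 kept lower with the largest smaller effect; in each list up to 2 reversed members in each direction and 2 kept members with the largest values (mean log2 CPM of at least 1); 14 genes of mineral deposition, muscle, lactate and the NR4A family; and, chosen after their values were seen, genes of the promoters shown and defining markers of cell types. A few genes that these rules name are not reported here. The members and lists were chosen with earlier results of these data known. Alternatives were DESeq2 1.42.0, limma-voom 3.58.1, other scalings and filters, a replicate block, a fit of each day and leaving out each library. Promoters are from RefSeq (GRCm38.p6), another build than that of the counts; 67.6% of tested genes had one, so motif shares are given only for lists with at least 80% matched.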

Additional observations from a re-analysis of the deposited data

Results flagged for a closer look

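The test of the difference between the days' knockout effects flagged 9593 genes, 60.1% of those tested, and the following named genes (values are changes of the log2 effect, day 14 less day 1, from edgeR's quasi-likelihood test at an adjusted p below 0.05).

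Among the targeted gene and its relatives, Nr4a3 changed by -1.27, Nr4a1 by 2.19 and Nr4a2 by 4.15. Among genes of mineral deposition, cartilage and muscle, Alpl changed by -11.82, Enpp1 by 6.14, Mgp by 7.66, Spp1 by 3.83, Sox9 by -1.54 and Myh11 by -4.12. The lactate genes Aldoa and Ldha changed by 1.90 and 2.59, and Yap1 by -4.86. Large rises were those of Lcn2 (13.51), Stc1 (10.26), Hp (9.44), Calcrl (8.27), Saa3 (8.26), Rnf150 (8.11), Trib2 (7.37) and Ccser1 (7.21), beside Mgp. The largest falls, among genes of at least 3 in mean log2 CPM with predicted genes passed over, were those of Slc6a12 (-16.38, with 0 counts in WT at day 1), Rgs1 (-13.96), Ggt1 (-12.06), Prr9 (-11.89), Clca3b (-10.19), Lce1g (-10.04), Atp13a4 (-9.90), Otog (-9.69), Xirp1 (-9.65) and Nlrp2 (-9.61).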

How the results depend on the processing

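The number of genes with a called change was within 1.5 times the main 9593 under all 19 alternatives tried for it, and from 9026 to 10484 when 1 library was left out (4325 to 5125 higher at day 14, 4618 to 5359 lower). Leaving out 1 library gave 7115 to 9762 calls at day 1, 7203 to 9354 at day 14, 1792 to 2236 genes from lower to higher, 1855 to 2400 from higher to lower, 297 to 905 kept higher and 353 to 783 kept lower; the values of 905 and 783 are those without WT replicate 1 of day 14, and the cause was not tested. Lists mostly reversed from lower to higher were 8 to 11, from higher to lower 0 to 3 and mostly kept 2 to 3, and the Nr4a3 change was -1.40 to -1.05. A separate fit of each day, in which the days do not share a dispersion, called 8961 genes at day 1 and 6694 at day 14. The main fit called 8377 and 8297, so the calls of day 14 depend on the shared fit. The cause was not tested. With effects of at least 2-fold at both days, a stricter rule that keeps fewer genes, the classes held 547, 971, 94 and 88 genes. Lists mostly reversed from higher to lower were 1 with limma-voom and 0 with no filter on low counts; the cause was not tested. The replicate block called 9527 changes; same-numbered WT and KO libraries shared deviations of r = -0.02 to 0.02, so the numbers did not pair the libraries. Of 229 genes of the naming rules, 180 had a called change, which turned sign under none of the 19 alternatives; 5 lost the call under at least 1. Of the other 49, 26 turned sign under at least 1 alternative, with no call at the other sign (lowest adjusted p 0.32), and 20 were called under at least 1 alternative. Of the 229, 197 kept their class under every alternative. Depth limits genes with few counts, such as Slc6a12, Alpl, Abcc9 and Iigp1 in WT at day 1, whose fitted effects depend on the prior count.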
